A study of Mus musculus with 17 samples.

Results

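The genes described are 10 of the 23282 listed in the deposited table, and encode transcription regulators of the pachytene and spermatid programme: *Crem*, *Fhl5*, *Rfx2*, *Rfx4*, *Tcfl5*, *Mybl1*, *Tbpl1*, *Taf7l*, *Brdt* and *Sox30*. They were listed by name, because their products act on genes of pachytene spermatocytes and spermatids, and their rows were taken with no threshold on a measured value. The list was drawn up with earlier results of these data known. RNA-seq libraries came from 3 kinds of testis cells, labelled C57BL/6 (C57BL/6J in the study's methods) and sorted by FACS on Hoechst and propidium iodide: spermatogonia (SPG), spermatocytes before leptotene (PreL), and spermatocytes at leptotene or zygotene (LZ). Each was taken from WT and from *Nat10*-SKO males. The WT groups had 3 SPG libraries, 3 PreL libraries and 2 LZ libraries, and the SKO groups had 3 libraries in each stage. *Nat10* encodes the N-acetyltransferase that writes ac4C on RNA, and in SKO mice a floxed *Nat10* allele over a null allele is cut by a *Stra8*-driven GFPCre, which acts in germ cells as they approach meiosis. Somatic cells of the testis therefore keep the floxed allele. The age of the mice is not given in the sources used here. The study calls the libraries biological replicates, but the labels do not say whether they came from separate animals, so p-values measure only the spread between these samples, which may be technical.

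The meiotic and post-meiotic programme of male germ cells uses regulators that are prominent in the testis, beside general factors that also act in somatic cells. MYBL1 (A-MYB) turns on genes of the pachytene stage, including some of the piRNA pathway, and TCFL5 acts beside it. RFX2 acts on genes of the cilium and the axoneme, and CREM, with its coactivator FHL5 (ACT), on genes of haploid spermatids. In the core promoter machinery, TBPL1 (TRF2) is a TBP-related factor and TAF7L is the testis form of a TFIID subunit. BRDT is the testis bromodomain protein that reads acetylated histones, and SOX30 is needed for the round spermatid stage.

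The libraries held 5812380 to 13820953 reads in genes, and the 3 SKO LZ libraries were the shallowest, with at most 7609420. Levels are given as normalised reads, which are reads divided by a size factor per library (median of ratios over the 17 libraries). *Nat10* itself lay between 311 and 365 normalised reads in WT SPG and between 146 and 215 in SKO SPG, and it was lower in SKO in each stage, by a log2 fold change of -0.87 in SPG, -1.29 in PreL and -1.47 in LZ (limma, adjusted p = 0.0326, 0.00591 and 0.00469). A gene was called in a comparison where limma gave an adjusted p under 0.05 with a log2 fold change beyond 1 in either direction, on the scale of log2(rescaled value + 10), which understates changes of low genes. The WT LZ libraries stood apart from each other: replicate 3 was above replicate 2 for 9 of the 10 regulators, by 1.52 to 2.58 times, and *Fhl5* was at 0.815 times. The sorted cells were bulk samples, in which fewer cells of a type and less RNA per cell cannot be told apart.

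Promoters are shown for 5 members, *Rfx2*, *Tcfl5*, *Brdt* and *Taf7l* as examples that carry a searched motif and *Fhl5* as the member with no read in SKO LZ. RefSeq's promoter table (GRCm38.p6) matched 8 of the 10 genes, leaving *Mybl1* and *Crem* unmatched. The 250 bases before each start were searched on both strands for AACNGNC (MYB), TGACGTCA (full CRE), TGACG (CRE half-site, contained in the full CRE), GTTGCC (RFX half-site) and CACGTG (E-box). Capitals mark the matched letters, read 5′ to 3′ on the gene's strand.
*Rfx2*, chr17:56831009-56831258, minus strand: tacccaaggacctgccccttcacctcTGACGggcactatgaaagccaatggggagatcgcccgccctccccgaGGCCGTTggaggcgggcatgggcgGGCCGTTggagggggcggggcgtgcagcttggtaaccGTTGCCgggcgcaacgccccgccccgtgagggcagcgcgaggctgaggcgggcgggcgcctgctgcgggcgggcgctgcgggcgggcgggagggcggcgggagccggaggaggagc
*Tcfl5*, chr2:180642692-180642941, minus strand: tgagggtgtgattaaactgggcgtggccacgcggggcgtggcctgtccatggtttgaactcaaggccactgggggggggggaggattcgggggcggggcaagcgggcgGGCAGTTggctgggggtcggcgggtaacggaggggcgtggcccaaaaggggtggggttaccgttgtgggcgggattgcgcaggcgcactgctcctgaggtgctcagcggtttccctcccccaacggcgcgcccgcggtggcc
*Brdt*, chr5:107330944-107331193, plus strand: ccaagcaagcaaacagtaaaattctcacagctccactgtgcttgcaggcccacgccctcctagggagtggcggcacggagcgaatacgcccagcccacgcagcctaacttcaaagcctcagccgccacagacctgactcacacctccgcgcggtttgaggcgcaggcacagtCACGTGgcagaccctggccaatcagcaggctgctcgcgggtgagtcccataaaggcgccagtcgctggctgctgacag
*Taf7l*, chrX:134476491-134476740, minus strand: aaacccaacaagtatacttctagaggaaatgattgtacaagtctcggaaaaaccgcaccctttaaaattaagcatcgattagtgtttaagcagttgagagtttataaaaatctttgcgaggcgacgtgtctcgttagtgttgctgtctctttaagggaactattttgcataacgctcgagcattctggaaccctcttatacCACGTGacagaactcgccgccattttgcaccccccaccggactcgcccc
*Fhl5*, chr4:25242853-25243102, minus strand: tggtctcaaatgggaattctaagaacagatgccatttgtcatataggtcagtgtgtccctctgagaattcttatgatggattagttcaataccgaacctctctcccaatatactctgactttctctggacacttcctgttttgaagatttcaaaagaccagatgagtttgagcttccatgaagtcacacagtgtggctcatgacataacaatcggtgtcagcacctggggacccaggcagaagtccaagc
The *Rfx2* window held 2 MYB matches, 1 CRE half-site and 1 RFX half-site. The *Tcfl5* window held 1 MYB match, and both *Rfx4* windows held MYB matches too. The *Brdt* and *Taf7l* windows each held 1 E-box, 78 and 49 bases before the start. No searched motif was in the *Fhl5*, *Sox30* or *Tbpl1* windows. Over all 32851 windows of this length, the MYB motif was in 27.7%, the full CRE in 1.55%, its half-site in 17.8%, the RFX half-site in 10.4% and the E-box in 6.02%. A match is a string of letters and not a measured binding site.

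Compared per length, in RPKM (reads scaled by exon length and library depth), the core promoter factors led. In WT LZ the mean level was 209 RPKM ± 22.8 (SD, n = 2) for *Taf7l* and 112 ± 43.3 for *Tbpl1*. *Tcfl5* followed at 46.2 ± 13.6 and *Brdt* at 41.8 ± 8.34, with overlapping libraries. *Fhl5* (26.9 ± 8.75), *Crem* (26.4 ± 7.90) and *Rfx2* (20.1 ± 7.31) could not be ordered beyond their spread. *Sox30* (12.4 ± 3.10) and *Rfx4* (8.72 ± 4.06) overlapped each other, and *Mybl1*, at 2.47 ± 0.677 RPKM, was lowest. In SKO LZ *Taf7l* stood at 302 ± 24.3 RPKM and *Tbpl1* at 17.1 ± 0.817 (SD, n = 3), while *Rfx2*, the seventh in WT, was at 0.509 ± 0.0578 and *Rfx4* at 0.0798 ± 0.0388. *Fhl5* had no read in SKO LZ.

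**Figure D1:**
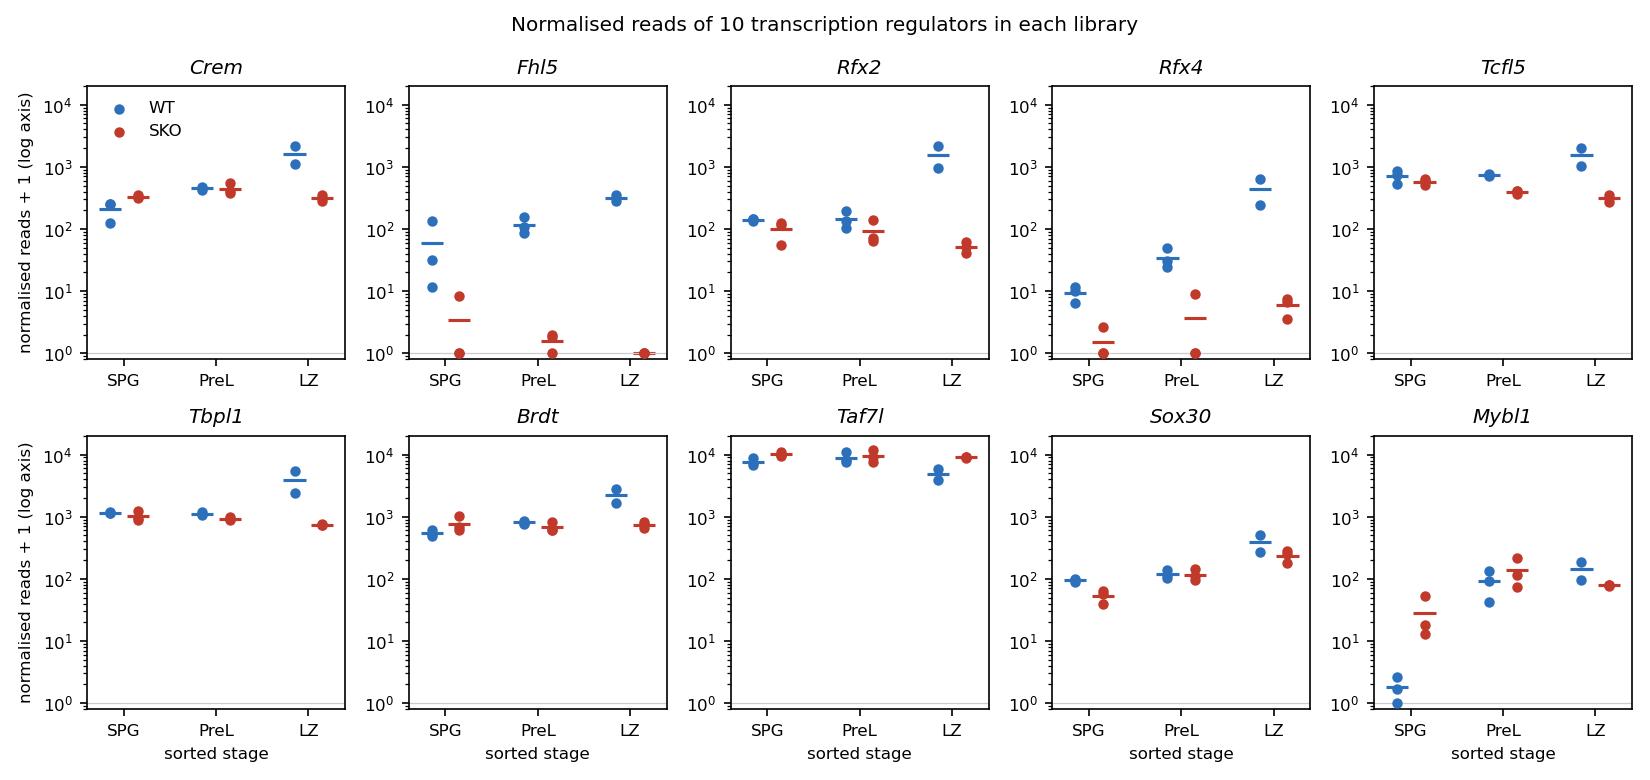
Normalised reads plus 1 on a log axis for each of the 10 regulators, by sorted stage, with 1 point per library (WT blue, SKO red) and a bar at the group mean. In LZ the SKO points of 7 regulators lie well below the WT points, *Taf7l* lies above, and *Mybl1* in SPG is near 0 in WT and up to 51.3 in SKO.

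SKO against WT in LZ, the stage that precedes pachytene, showed most of the regulators lower. Limma called 7 of the 10 lower and none higher, and over all genes tested 25.8% were called lower and 13.4% higher. The 7 were *Crem*, *Fhl5*, *Rfx2*, *Rfx4*, *Tcfl5*, *Tbpl1* and *Brdt*. The count of 7 was kept with edgeR and with DESeq2 on recovered reads. *Mybl1*, *Sox30* and *Taf7l* were not called.

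*Crem* encodes a cAMP-responsive regulator of spermatid genes and lies on chromosome 18 from 3266048 to 3337748 (GRCm38, GENCODE vM21, minus strand). In LZ it had 1091 and 2182 normalised reads in WT replicates 2 and 3, and 309, 277 and 346 in SKO replicates 1, 2 and 3. Both WT libraries were above all 3 SKO libraries, and the WT libraries differed widely from each other. The log2 fold change was -2.33 ± 0.30 (SE, adjusted p = 0.000613). In PreL the 3 WT libraries had 467, 461 and 427 and the SKO libraries 402, 380.3 and 551, so the genotypes overlapped and the log2 fold change was -0.03 (adjusted p = 0.914). In SPG the WT libraries held 125 to 251 and the SKO libraries 308 to 353, without overlap, at a log2 fold change of 0.69 that missed the threshold (adjusted p = 0.129). Exons of *Crem* overlap *Gm6225* on the opposite strand, and the Smart-seq2 libraries did not mark strand, so their reads cannot be told apart. Reads were counted by gene, so the transcript forms of *Crem* were not separated either.

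*Fhl5*, whose LIM-only product is the partner of CREM, had the most negative log2 fold change of the 10 in PreL and LZ. It lies on chromosome 4 from 25199908 to 25242876 (minus strand). In LZ it had 345 and 281 normalised reads in WT and 0 in each of the 3 SKO libraries, and the WT libraries held 868 reads in all. Against a floor of 3 reads over the SKO group, it was at least 163-fold lower. In PreL the WT libraries had 107, 155 and 84.0 normalised reads and the SKO libraries 0, 0.81 and 0.93. That is 361 reads against 2, a fall of 200.5-fold with a 95% counting interval of 55.1 to 1662. The call in PreL was adjusted p = 0.000215 at a log2 fold change of -4.35 ± 0.41 (SE). *Fhl5* already varied in SPG, where the WT libraries had 134, 10.7 and 31.1 and the SKO libraries 0, 0 and 7.19. These groups did not overlap, but the log2 fold change of -2.30 missed the threshold (adjusted p = 0.0541). The WT SPG library with the most *Fhl5*, replicate 1, also held the most spermatid reads, 0.0667% of its total against 0.0325% and 0.0507%. Whether this accounts for the SPG difference was not tested.

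*Rfx2* encodes the regulatory factor X protein that acts on ciliary genes, and lies on chromosome 17 from 56775897 to 56831013 (minus strand). In LZ the WT libraries had 968 and 2135 normalised reads and the SKO libraries 59.8, 40.5 and 49.7. This gave a log2 fold change of -4.82 ± 0.38 (SE, adjusted p = 7.46e-05). The SKO LZ libraries were far below both WT libraries and overlapped those of SKO SPG, which held 54.9 to 125. In PreL the WT libraries had 133, 193 and 101 and the SKO libraries 63.8, 70.7 and 138, with overlap. The log2 fold change was -0.64 (adjusted p = 0.236).

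*Rfx4*, a second member of this family, lies on chromosome 10 from 84756062 to 84906538 (plus strand) and was low in all libraries but those of WT LZ. It had 246 and 633 normalised reads there and 2.49, 6.48 and 5.74 in SKO LZ, at a log2 fold change of -5.87 ± 0.55 (SE, adjusted p = 0.000137). In PreL the WT libraries had 29.1, 47.9 and 23.0 and the SKO libraries 0, 8.13 and 0. The PreL call (log2 fold change -2.39, adjusted p = 0.0171) did not hold without WT PreL replicate 2 or SKO PreL replicate 1, where the adjusted p was 0.0616 and 0.0817. It had too few reads to be tested in SPG, where 32 reads in WT stood against 2 in SKO.

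*Tcfl5*, a basic helix-loop-helix factor of pachytene cells, lies on chromosome 2 from 180621956 to 180642708 (minus strand), where exons of *Col9a3* run on the other strand. In LZ the WT libraries had 1029 and 2043 normalised reads and the SKO libraries 316, 355 and 272. This gave a log2 fold change of -2.22 ± 0.30 (SE, adjusted p = 0.000763). *Tcfl5* was also lower in PreL, with 718, 776 and 735 in WT and 402, 366 and 413 in SKO. The groups were far apart for their spread, but the log2 fold change of -0.90 ± 0.13 (adjusted p = 0.00269) stayed within the fold threshold. It moved to -0.18 on the ERCC-calibrated values without rescaling, on which the median gene rose by 0.73. In SPG the genotypes overlapped.

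*Mybl1*, which acts at the top of the pachytene programme, lies on chromosome 1 from 9667415 to 9700209 (minus strand) and was not called between genotypes in any stage. In LZ the WT libraries had 95.9 and 185 normalised reads and the SKO libraries 79.7, 77.7 and 76.5. The SKO libraries were lower than both WT libraries, yet the log2 fold change of -0.77 ± 0.37 (SE) was not called (adjusted p = 0.121). Without WT LZ replicate 2 it was called, at -1.28 (adjusted p = 0.0225). In PreL the groups overlapped, with 92.0, 42.1 and 135 in WT and 115, 73.1 and 217 in SKO. In SPG the WT libraries held 1, 0 and 2 reads and the SKO libraries 56, 17 and 15, a ratio of 33.0 with a counting interval of 10.9 to 163. The limma adjusted p for this difference was 0.0599, so it was not called, while DESeq2 gave 0.0067.

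*Tbpl1* encodes the TBP-related factor used in spermatids and lies on chromosome 10 from 22703879 to 22731938 (minus strand), with exons of *Slc2a12* on the opposite strand. In LZ it had 2359 and 5389 normalised reads in WT and 769.9, 721 and 746 in SKO. The log2 fold change was -2.27 ± 0.32 (SE, adjusted p = 0.000958). In PreL the WT libraries had 1045, 1185 and 1095 and the SKO libraries 873, 977 and 927. Every SKO library was lower, but the log2 fold change of -0.25 was not significant (adjusted p = 0.184) and its sign turned to 0.47 on the ERCC-calibrated values.

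*Taf7l* encodes the testis form of a TFIID subunit, lies on the X chromosome from 134460118 to 134476490 (minus strand) and was the member with higher SKO values in LZ. There the WT libraries had 3844 and 5837 normalised reads and the SKO libraries 8967, 8959 and 9111. The SKO libraries were higher than both WT libraries and close to the values of earlier stages, with 7499.8 to 11667 in SKO PreL. The log2 fold change of 0.91 ± 0.22 (SE, adjusted p = 0.0104) passed the test of the p-value and not the fold threshold of 1. Without WT LZ replicate 3 it was 1.21, which was called. In SPG the SKO libraries were higher as well, at a log2 fold change of 0.40 (adjusted p = 0.045).

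*Brdt*, on chromosome 5 from 107331159 to 107387058 (plus strand), had 1634 and 2824 normalised reads in WT LZ. The SKO LZ libraries had 750.0, 649.5 and 816. This gave a log2 fold change of -1.56 ± 0.26 (SE, adjusted p = 0.00188), the smallest of the 7 called. The SKO LZ values overlapped those of SKO PreL, which were 602, 605 and 813. *Brdt* was not called in PreL (log2 fold change -0.26, adjusted p = 0.267) or in SPG (0.46, adjusted p = 0.173).

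*Sox30*, a high-mobility-group factor, lies on chromosome 11 from 45980310 to 46017994 (plus strand). Its LZ groups overlapped, with 271 and 505 normalised reads in WT and 279, 177 and 252 in SKO. The log2 fold change was -0.68 ± 0.34 (SE, adjusted p = 0.129). In SPG every SKO library, at 37.6 to 63.1, was below the WT range of 89.4 to 97.5, but limma did not call it (adjusted p = 0.206).

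**Figure D2:**
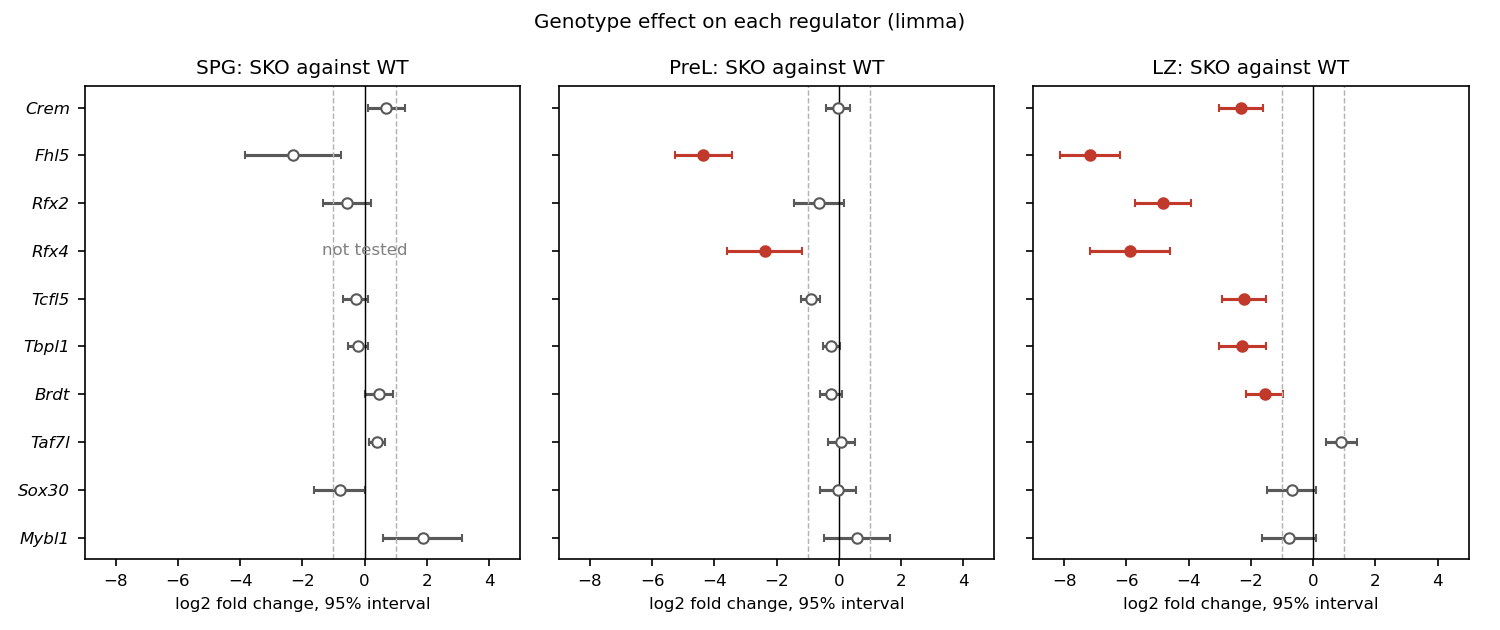
Log2 fold change of SKO against WT with its 95% interval from limma, for each regulator and stage. Filled red points were called, open points were not, dashed lines mark the fold threshold of 1, and *Rfx4* was not tested in SPG.

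In the earlier stages few regulators differed. In PreL limma called 2 of 10 lower (*Fhl5* and *Rfx4*) and none higher, while 5.83% of all genes were called lower and 5.32% higher. *Crem*, *Sox30*, *Brdt*, *Rfx2* and *Tbpl1* were not called, and their small negative log2 fold changes turned positive on ERCC-calibrated values without rescaling, at 0.68, 0.67, 0.46, 0.05 and 0.47. In SPG 9 of the 10 could be tested and none was called in either direction, against 2.06% lower and 3.95% higher over all genes. Unadjusted limma p-values under 0.05 were found for *Fhl5* lower and for *Mybl1*, *Crem*, *Brdt* and *Taf7l* higher. Over all genes 3341 of the 12846 tested had such a p-value. DESeq2 called 1 regulator lower and 1 higher, beside 328 and 604 of all genes.

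The background of calls over all genes depended on the scaling. On ERCC-calibrated values without rescaling, genes called lower and higher numbered 578 and 399 in SPG (265 and 508 as reported) and 585 and 3459 in PreL (765 and 699). The same scaling gave 15 and 10992 from PreL to LZ in WT (1073 and 2585), 30 and 5657 from SPG to PreL in SKO (123 and 210), and 152 and 4409 from PreL to LZ in SKO (865 and 1319). In LZ the split between genotypes stayed within 10 percentage points of the reported one under the scalings run, and 7 regulators were called lower under each of them.

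Within WT, most of the regulators rose between the sorted stages. From SPG to PreL in WT, 2 of 10 were called higher, *Mybl1* (log2 fold change 3.53) and *Crem* (1.12), against 2.54% of all genes higher and 1.21% lower. From PreL to LZ in WT, 7 of 10 were called higher, and 18.8% of all genes were higher and 7.8% lower. These were *Rfx4* (log2 fold change 3.33), *Rfx2* (3.21), *Crem* (1.62), *Tbpl1* (1.54), *Sox30* (1.5), *Fhl5* (1.30) and *Brdt* (1.27). *Taf7l* was called lower (-1.03), a call that was lost on ERCC-calibrated values without rescaling, where the median gene rose by 1.86. Without WT LZ replicate 3 the count of regulators called higher was 3.

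From PreL to LZ in SKO no rise was called. Of 8 regulators that could be tested, 0 were called in either direction, while 10.6% of all genes were higher and 6.93% lower. An unadjusted limma p under 0.05 was found for 5897 of the 12477 genes tested. Among the regulators *Sox30*, at a log2 fold change of 0.98, was higher at that level, and *Tcfl5* (-0.36), *Crem* (-0.53) and *Tbpl1* (-0.34) were lower. *Sox30* and *Tbpl1* also had an adjusted p under 0.05, of 0.0161 and 0.0394. Over all genes 2224 were higher and 2382 lower at an adjusted p under 0.05. edgeR and DESeq2 each called 1 regulator higher and 0 lower. Of the 12477 genes, edgeR called 1295 higher and 848 lower, and DESeq2 called 1355 higher and 820 lower. From SPG to PreL in SKO, *Mybl1* was called higher (log2 fold change 2.18), against 1.63% of all genes higher and 0.955% lower, and 7 tested regulators were not called.

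The genotype effect itself differed between LZ and PreL for most members. In a limma interaction over the 17 libraries, 7 of 10 had an adjusted p under 0.05, 6 with a lower effect in LZ and 1 with a higher one, and over all genes 23.1% were lower and 15.1% higher. *Rfx2* had the largest difference (log2 -4.09, adjusted p = 1.47e-05), followed by *Rfx4* (-2.92), *Crem* (-2.26), *Tbpl1* (-1.99), *Tcfl5* (-1.29) and *Brdt* (-1.27). *Taf7l* had a difference of 0.85 in the other direction. *Fhl5*, already near 0 in SKO PreL, had a difference of -1.60 that was not significant (adjusted p = 0.178). Between PreL and SPG no regulator had an adjusted p under 0.05, while 0.111% of all genes were lower and 0.251% higher. At an unadjusted limma p under 0.05 *Mybl1* (-1.79), *Tcfl5* (-0.64) and *Brdt* (-0.75) were lower in that comparison. Over all genes 2054 of the 13530 tested had such a p-value. DESeq2 gave 1 regulator with an adjusted p under 0.05, beside 190 genes lower and 144 higher. The comparisons in this paragraph and those before it share libraries and are not independent of each other.

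Many spermatid transcripts and some of late spermatocytes were lower in SKO already in SPG. No regulator was called there, and *Fhl5* missed the threshold (log2 fold change -2.30, limma adjusted p = 0.0541). Of 27 spermatid genes, which encode proteins of the sperm head and tail, 13 of 25 tested were called lower in SPG, 18 of 25 in PreL and 27 of 27 in LZ. The median log2 fold change was -2.50, -4.14 and -5.90. Of 21 genes of late spermatocytes, 7, 14 and 20 were called lower, at medians of -0.96, -2.52 and -4.82. Over all genes 2.06%, 5.83% and 25.8% were called lower in SPG, PreL and LZ. The 10 regulators had medians of -0.22, -0.26 and -2.25 over the members tested, and the medians of all genes were 0.00, 0.04 and -0.13. No test compared these lists with each other. The late spermatocyte count in SPG was unstable, since it was 2 with edgeR, 2, 4 and 2 without WT SPG replicate 1, 2 or 3, 3 without SKO SPG replicate 3 or 4, and 10 without SKO SPG replicate 1.

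*Ldhc*, the lactate dehydrogenase of meiotic and haploid cells, had log2 fold changes of -3.57, -6.48 and -8.65 in SPG, PreL and LZ. *Crisp2*, a sperm protein of the acrosome and tail, had -3.90, -6.65 and -10.34 in the same order. *Tnp2*, a transition protein of spermatid chromatin, had -6.27, -8.04 and -8.84, and *Prm1*, a protamine, -5.52, -7.63 and -8.79. Every one of these changes was called, though the SPG groups of *Ldhc* overlapped (limma adjusted p = 0.0417). *Odf2*, on the spermatid list, had -0.33 in SPG (not called), -1.13 in PreL and -3.31 in LZ. *Tuba3a*, on the late spermatocyte list, had -1.47 in SPG, -0.92 in PreL (not called) and -2.34 in LZ. *Tex101* was not called in any stage, at 0.75, 0.95 and -0.67. In PreL *Tnp2* had 2669 normalised reads in WT against 4.63 in SKO. There *Fhl5* and *Rfx4* were called lower, and *Crem*, *Tbpl1* and *Brdt* were not called.

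Genes of the axoneme and cilium, among which are targets of RFX factors, were called lower in 2 of 21 tested in SPG, 12 of 22 in PreL and 22 of 22 in LZ. *Meig1*, needed for the manchette and the sperm tail, had log2 fold changes of -2.62, -4.19 and -5.94, all called. Its SPG groups overlapped, however (limma adjusted p = 0.0451). *Rsph1* had -2.71 (not called), -3.11 and -5.06. *Ift81* went the other way in SPG, where every SKO library was higher (0.84, limma adjusted p = 0.0136), within the fold threshold. *Ift81* was at 0.03 in PreL and was called lower in LZ (-1.03). *Dnah8*, an axonemal dynein heavy chain, had log2 fold changes of -0.34 in SPG (not called), -2.38 in PreL and -6.76 in LZ. *Rfx2* was called lower in LZ and not in PreL. *Rfx4* was called lower in both, though its PreL call depended on single libraries. In the piRNA pathway, some of whose genes MYBL1 acts on, 1, 2 and 8 of 16 were called lower in SPG, PreL and LZ. Over all genes 2.06%, 5.83% and 25.8% were called lower in these stages. *Piwil1* is on this list and on that of late spermatocytes. *Mael* had a log2 fold change of -1.24 in LZ (adjusted p = 0.00496), while *Ddx4*, *Ddx39* and *Mov10l1* were not called there.

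**Figure D3:**
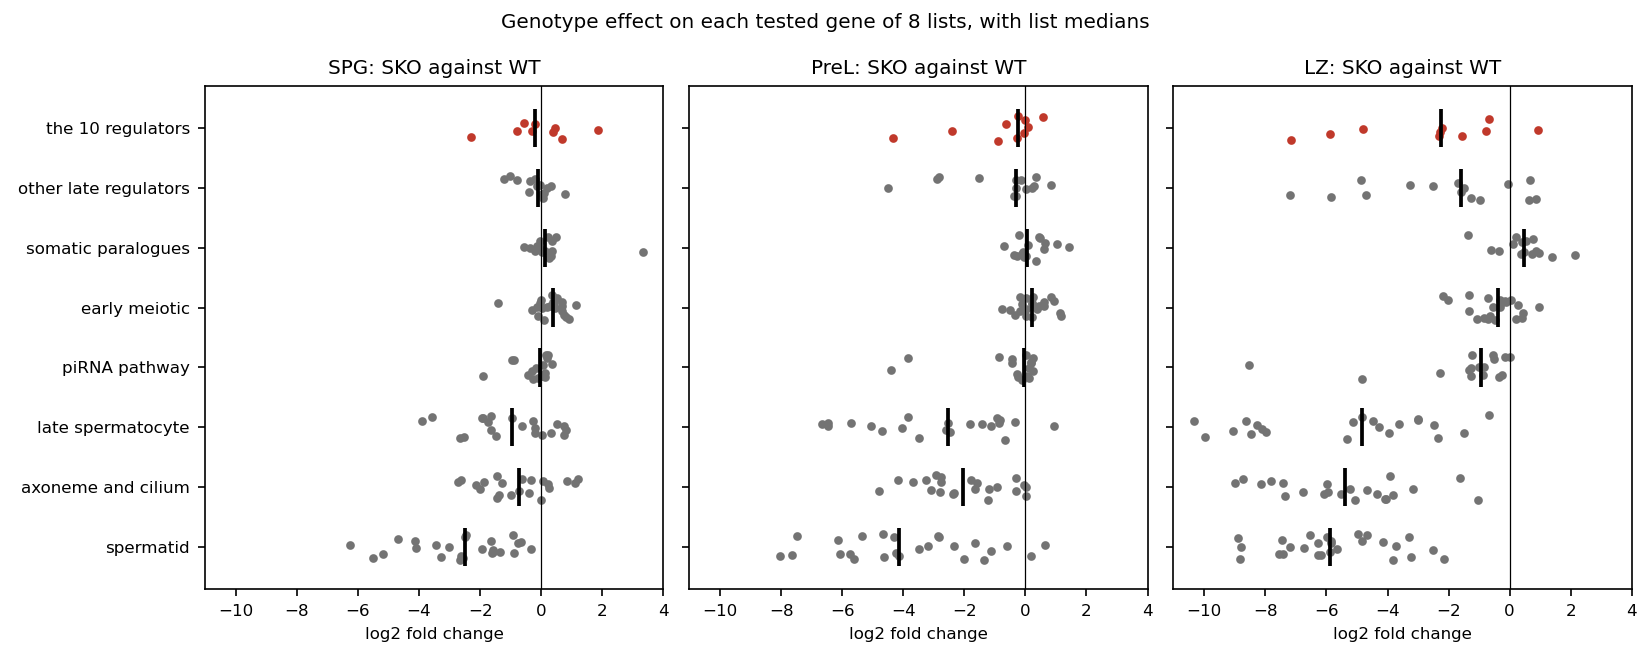
Log2 fold change of SKO against WT for each tested gene of 8 lists in the 3 stages, with a black bar at each list's median. Among the 10 regulators (red) 7 were called lower in LZ, and the spermatid list has a median of -2.50 already in SPG.

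Markers of cells later than the sorted stages differed by list. The spermatid sum was lower in SKO in every stage, and the late spermatocyte sum was lower without overlap only in LZ. The 27 spermatid genes made up 0.0325 to 0.0667% of reads in WT SPG, 0.101 to 0.202% in WT PreL and 0.347 to 0.371% in WT LZ. In SKO they made up 0.0101 to 0.0153%, 0.00832 to 0.0109% and 0.00637 to 0.00740%. No WT LZ library had one of them at 0, and the SKO LZ libraries had 10 to 16 at 0, although they were also the shallowest. Late spermatocyte genes made up 0.0801 to 0.150% in WT SPG and 0.0799 to 0.0982% in SKO SPG, with overlap. In PreL they made up 0.120 to 0.251% in WT and 0.102 to 0.130% in SKO, again with overlap. In LZ they reached 0.686 and 1.12% in WT and were at 0.0527 to 0.0648% in SKO. The study counted the stages of sorted cells, and those counts are not used here. The part of later cells in the regulators' difference was not tested.

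**Figure D4:**
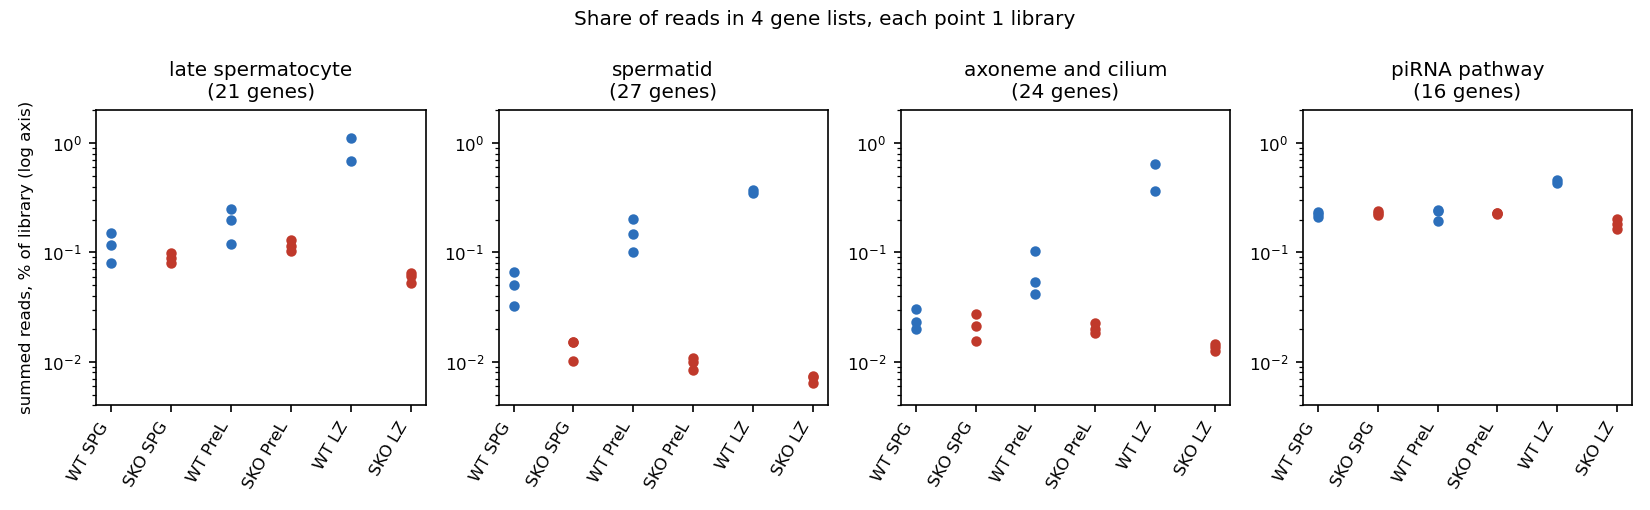
Summed reads of 4 gene lists as a percentage of each library's reads, on a log axis, with 1 point per library (WT blue, SKO red). In WT LZ the late spermatocyte genes reach 0.686 and 1.12%, and in SKO LZ they stay at 0.0527 to 0.0648%.

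Somatic cell markers moved with genotype too. Of the Leydig cell genes tested, 5 of 8 in SPG, 6 of 8 in PreL and 6 of 9 in LZ were called higher, and together they made up 0.00836 to 0.0237% of reads in SKO LZ against 0.00240 to 0.00740% in WT LZ. The shares of all genes called higher were 3.95% in SPG, 5.32% in PreL and 13.4% in LZ. Those called lower were 2.06%, 5.83% and 25.8% in the same order. *Cyp17a1*, a steroidogenic enzyme of Leydig cells, rose by 3.38 on the log2 scale in LZ. The part of these cells in the regulators' difference was not tested. Peritubular myoid genes made up 0.0271 to 0.0485% in SKO SPG against 0.000268 to 0.00508% in WT SPG, and 3 of 5 tested were called higher there. In PreL and in LZ 1 of 4 myoid genes was higher and 1, *Actg2*, was lower (log2 fold change -3.06 and -3.41). Genes of endothelium and macrophages made up 0.00966 to 0.0157% in SKO SPG against 0.00110 to 0.00161% in WT SPG. The Sertoli cell genes made up 0.182, 0.216 and 0.0325% of reads in SKO PreL replicates 1, 2 and 3 against 0.0326 to 0.0362% in WT PreL, where 4 of 11 tested were called higher. In LZ they ranged from 0.0685 to 0.267% in WT and from 0.122 to 0.166% in SKO. Markers of the sorted stages were present: spermatogonial genes made up 0.130 to 0.137% in WT SPG and 0.165 to 0.179% in SKO SPG. Early meiotic genes made up 0.773 to 0.933% in WT LZ and 0.478 to 0.708% in SKO LZ. In SPG their share was higher in SKO without overlap, at 0.831 to 0.891% against 0.660 to 0.675% in WT. In PreL the shares overlapped, with 0.878 to 1.01% in WT and up to 1.43% in SKO. In SPG and in PreL 1 of 22 genes was called higher and 0 lower, in PreL *Sycp3* (log2 fold change 1.13). Whether this shift bears on *Mybl1* in SPG was not tested. Of 22 early meiotic genes, 4 were called lower in LZ (18.2%, against 25.8% of all genes) and *Sycp3*, *Sycp1*, *Syce2* and *Smc1b* were not. Of 16 spermatogonial genes 1 was called lower and 5 higher in LZ, among them *Dmrt1* (log2 1.29) and *Kit* (1.12).

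Of 16 somatic paralogues of the regulators, such as *Rfx1*, *Creb1*, *Brd2* and *Taf7*, 1 of 15 tested was called lower in LZ and 2 were called higher, beside 25.8% and 13.4% of all genes. *Tbp*, the general TATA-box binding protein and relative of *Tbpl1*, had means of 1994 normalised reads in WT LZ and 749.7 in SKO LZ (log2 fold change -1.35, adjusted p = 0.00435). *Fhl3* and *Fhl2*, relatives of *Fhl5*, rose by 2.13 and 1.40 there. *Fhl2* also rose by 3.32 in SPG, in libraries whose myoid markers were higher, and the part of those cells was not tested. *Rfx3*, another ciliary RFX factor, rose by 1.43 in PreL.

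Among 15 other regulators or partners of the late programme, 0 of 14 tested were called in SPG, 4 of 14 were lower in PreL and 10 of 15 in LZ. The shares of all genes called lower were 5.83% in PreL and 25.8% in LZ. *Gtf2a1l*, the testis form of TFIIA, had log2 fold changes of -4.49 in PreL and -7.20 in LZ, where it had 2600 normalised reads in WT and 15.4 in SKO. *Papolb*, a testis poly(A) polymerase, had -2.90 in PreL and -5.85 in LZ, *Kctd19* had -2.82 and -4.87, and *Ovol1* had -1.53 and -2.51. *Hsf5* (-3.26), *Zfp541* (-1.71), *Dmrtc2* (-1.60) and *Kdm3a* (-1.26) were called in LZ and not in PreL.

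Genes whose pattern over the 17 libraries was most like that of each regulator were listed by Pearson's r on the log scale, as a description, since all points share genotype, stage and depth. *Fhl5* was most like *4931407G18Rik* (r = 0.984), *Txndc2* (0.983) and the spermatid linker histone *Hils1* (0.977). *Rfx4* was most like *Ttc29* (0.984), *Lrrc46* (0.984) and *Gm711* (0.979), and *Rfx2* like *Ttll13* (0.972), *Lancl1* (0.971) and *Chrac1* (0.967). *Mybl1* was most like *Hormad1* (0.959), a protein of the meiotic chromosome axis, then *Hfm1* (0.914) and *Hist1h2ba* (0.913). The closest genes were *Tex2* for *Tcfl5* (0.974), *E130303B06Rik* for *Tbpl1* (0.974), *Ttc4* for *Brdt* (0.970), *Mtmr6* for *Crem* (0.952), *Nek2* for *Sox30* (0.951) and *Rab5a* for *Taf7l* (0.939). Among the regulators, *Rfx2* and *Tbpl1* were most alike (r = 0.956), and *Taf7l* ran against *Rfx4* (r = -0.773).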

How the data were processed

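RNA-seq (Smart-seq2) was measured in 17 libraries. The authors trimmed the reads, mapped them to mm10 (the submitters' processing notes name mm9 too, and TopHat2 2.1.1), took the reads that mapped to a single place and counted them by gene with HTSeq 0.11.2, and deposited signal values, which are counts multiplied by 1 ERCC calibration factor per library. The authors tested with DESeq2. For 1 library the deposited values are whole counts, its factor being 1. Dividing by each library's smallest value gave whole reads for 100% of values (tolerance 0.0001).

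Here each comparison was scaled by its own median-of-ratios size factors and kept genes that averaged 10 or more reads. limma 3.58.1 (R 4.3.3, mean-variance trend, Benjamini-Hochberg) was then run on log2(value + 10). edgeR 4.0.16 and DESeq2 1.42.0 on recovered reads, other scalings, pseudocounts and filters were alternatives. The fits were tested on simulated data. The LZ minus PreL interaction missed more of the changed genes than the comparisons within a stage, and its share of false calls was above the nominal rate, so a missed or borderline interaction call says little. Intervals of read ratios cover counting error only, and those of log2 fold changes come from limma. No replicate pair repeated a library. Members and gene lists were chosen with earlier results of these data known. Named were all members, called paralogues and other late regulators (up to 8), genes among the 4 with most reads of each other list, and the 3 genes most alike by correlation.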

Additional observations from a re-analysis of the deposited data

Results flagged for a closer look

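For 7 regulators the effect of genotype (SKO against WT, log2) differed between LZ and PreL by a limma interaction term over all 17 libraries. The LZ effect minus the PreL effect was -1.29 for *Tcfl5* (adjusted p = 0.00347), -4.09 for *Rfx2* (1.47e-05), -2.26 for *Crem* (0.00016), -1.27 for *Brdt* (0.00352), -1.99 for *Tbpl1* (4.7e-05) and -2.92 for *Rfx4* (0.00567). For *Taf7l* it was 0.85 (0.0162). The difference for *Taf7l* was -0.02 on ERCC-calibrated values without rescaling and 0.55 without WT LZ replicate 2 (adjusted p = 0.127). That for *Rfx4* missed the threshold with edgeR (adjusted p = 0.148), DESeq2 (0.0665), a pseudocount of 1 (0.472) and without WT LZ replicate 3 (0.0541).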

How the results depend on the processing

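The count of 7 regulators lower in LZ was 7 under every alternative run except without WT LZ replicate 2, where it was 8. The lone WT LZ sample left by that setting is assumed to vary like the other group. In SPG the regulators called lower were 1 (0 as reported) on ERCC-calibrated values without rescaling, with DESeq2, in one fit of the 17 libraries and with the replicate block, and those called higher were 1 with DESeq2, in that one fit and with no fold threshold. Without single libraries the SPG lower count was 0 to 1. The late spermatocyte genes lower in SPG were 7 as reported, 1 with no filter, 2 with edgeR, 3 with DESeq2, and 2 to 10 without single libraries. In PreL the regulators called lower were 1 (2 as reported) with a minimum of 50 mean reads and with edgeR, and 1 to 2 without single libraries, and 1 was called higher on ERCC values. In LZ 1 was called higher with no fold threshold, and 0 to 1 without single libraries.

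ERCC values turned the PreL log2 fold changes of *Rfx2* to 0.0453, *Crem* 0.68, *Brdt* 0.46, *Sox30* 0.67 and *Tbpl1* 0.47, and the LZ minus PreL difference of *Taf7l* to -0.0188. Without single libraries the PreL log2 fold changes ranged from -0.19 to 0.0720 for *Crem*, -0.18 to 0.11 for *Sox30* and -0.0842 to 0.23 for *Taf7l*. The cause was not tested.

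From SPG to PreL in WT, 1 regulator was called higher (2 as reported) with no filter and with a minimum of 50 mean reads, and 1 to 2 without single libraries. From PreL to LZ in WT, 0 were called lower (1 as reported) on ERCC values and in one fit of all libraries, and 0 to 1 without single libraries, and 3 to 7 were called higher. From SPG to PreL in SKO, those higher were 3 on ERCC values, 2 in one fit, 0 with a pseudocount of 1, no filter, edgeR or the replicate block, and 0 to 1 without single libraries. From PreL to LZ in SKO, 1 was called higher on ERCC values, with edgeR, DESeq2 or no fold threshold, 1 lower with no fold threshold, and 0 to 1 in either direction without single libraries. The PreL minus SPG effect had 3 regulators with an adjusted p under 0.05 on ERCC values and 1 with DESeq2.

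Whether the replicate numbers pair the samples is not known. Same-numbered WT and SKO libraries of a stage correlated at -0.056 to 0.106 in their deviations, with 2 shared numbers per stage. Differently numbered ones correlated at -0.0871 to 0.0568. The deviations are taken from each group's mean, so those within a group depend on each other, and this check cannot exclude pairing. The block could not be fitted for WT LZ against PreL (0 residual degrees of freedom). Where all genes were scaled by ERCC alone, the median log2 fold change was -0.25 in SPG, 0.73 in PreL and -0.25 in LZ. SKO LZ depth limits what can be said of genes at 0.

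Over all genes, the LZ counts (3534 lower, 1838 higher) stayed within 1.5 times under every alternative. In SPG (265 and 508) they were 178 and 325 with no filter, 155 and 352 with a minimum of 50 mean reads, 509 and 697 in one fit, 622 and 799 with no fold threshold, 161 and 418 without WT SPG replicate 1 and 118 and 305 without replicate 3. In PreL (765 and 699) they were 390 and 376 with that minimum, 1318 and 1034 with no fold threshold, 888 and 1256 with the replicate block, and 510 and 180 without SKO PreL replicate 1, 609 and 276 without replicate 2, 709 and 1059 without replicate 3, and 539 and 421 without WT PreL replicate 2. From SPG to PreL in WT (153 and 322) they ran from 27 and 78 without WT SPG replicate 3 to 382 and 540 with no fold threshold, and in SKO (123 and 210) from 38 and 78 with the block to 342 and 382 with no fold threshold. From PreL to LZ they were 1959 and 2816 in WT (1073 and 2585) and 2382 and 2224 in SKO (865 and 1319) with no fold threshold, and 919 and 797 in WT without WT LZ replicate 3. The LZ minus PreL effect (3122 and 2040) gave 6575 and 749 on ERCC values and 1952 and 1806 without WT LZ replicate 3, and the PreL minus SPG effect (15 and 34) gave 1 and 8 without SKO PreL replicate 1, 190 and 144 with DESeq2 and 147 and 5938 on ERCC values.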
